A study of Rattus norvegicus with 10 samples.

Results

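Microglia nuclei of the rat dentate gyrus were taken from the snRNA-seq libraries by the UMIs of 10 genes, and 1944 of the 55401 nuclei kept (3.51%) met the rule. A nucleus was kept with at least 500 UMIs and at most 5% of them from mitochondrial genes. It was counted as a microglia nucleus where the summed UMIs of Csf1r, Inpp5d, Dock8, Ikzf1, Blnk, Apbb1ip, Cx3cr1, Ptprc, Bin2 and Lyn came to at least 3 and to at least 0.5% of all its UMIs. The rats were male Sprague Dawley animals aged about 8 to 15 weeks at injury. TBI was a lateral fluid percussion injury, a pressure pulse delivered through an opening in the skull, and the dentate gyrus of the injured side was collected 3 weeks later. Sham rats had the surgery without the pulse, and the naïve rat had no surgery. The nuclei came from 2 TBI rats, 1 sham rat and 1 naïve rat, each rat being 1 library, and the sham and naïve rats together served as the control. Bulk RNA-seq of the dentate gyrus came from 3 TBI rats and 3 sham rats.

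Microglia are the resident macrophages of the brain. At rest they survey the tissue with fine processes, read neuronal signals through the fractalkine receptor Cx3cr1, and depend for survival on the receptor Csf1r. After injury they can take up debris, make complement and present antigen, and under interferon signalling they switch on a shared set of antiviral genes through response elements near the gene starts. The gate genes fall along these roles. Csf1r and Cx3cr1 are surface receptors, Ptprc (CD45) is the phosphatase found on all leukocytes, and Lyn, Blnk and Inpp5d carry or damp signals from immune receptors. Dock8, Apbb1ip and Bin2 act on the actin cytoskeleton and adhesion, and Ikzf1 is a transcription factor of blood cell lineages.

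Promoter sequences of the interferon-stimulated genes are shown because part of the group carries a response element, with 3 that hold it and that of Slfn4, the gene of the group with the most UMIs over the 4 rats, 264 of them in TBI rat 2. The sequences were those of RefSeq on the GRCr8 build, and 28 of the 40 genes of the interferon-stimulated list and 8 of the 10 gate genes were found there. The interferon-stimulated response element was searched on both strands as GAAA, any 2 bases and GAAA in the 250 bases before each start. It was present in 15 of the 28 interferon-stimulated promoters (53.6%), against 902 of 27457 promoters in all (3.29%). Among the gate genes it was present in 1 of 8, that of Apbb1ip. The letters GAGGAAGT, bound by the myeloid factor PU.1, were present in none of the 8 gate promoters, in 1 of the 28 interferon-stimulated promoters (Mx1) and in 561 of all promoters (2.04%). A match is a run of letters and not a measured binding site. The 100 bases before the start are given 5′ to 3′ on the strand of the gene, with matches to the response element in capitals. A match lay in those of Eif2ak2 (the kinase PKR; chr6:21941054-21941153, plus strand), Ifih1 (the RNA sensor MDA5; chr3:67683969-67684068, minus strand) and Parp14 (an ADP-ribosyltransferase; chr11:78408034-78408133, plus strand). Slfn4 (a Schlafen family gene; chr10:68492120-68492219, plus strand) had no match within 250 bases, nor had Mx1.
Eif2ak2: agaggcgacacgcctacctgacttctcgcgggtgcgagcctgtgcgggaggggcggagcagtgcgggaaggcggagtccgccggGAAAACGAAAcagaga
Ifih1: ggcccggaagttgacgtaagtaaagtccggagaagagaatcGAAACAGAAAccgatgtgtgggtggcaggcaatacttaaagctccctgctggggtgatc
Parp14: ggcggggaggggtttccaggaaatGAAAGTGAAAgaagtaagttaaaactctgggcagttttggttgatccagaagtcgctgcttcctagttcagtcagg
Slfn4: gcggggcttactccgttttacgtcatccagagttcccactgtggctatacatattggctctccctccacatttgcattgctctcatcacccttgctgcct
The match ended 7 bases before the start in Eif2ak2, 50 bases before it in Ifih1 and 67 bases before it in Parp14.

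The libraries differed in ways that bear on every value below. The gated nuclei held 337002 UMIs in TBI rat 1, 564557 in TBI rat 2, 252997 in the sham animal and 297720 in the naïve animal. Their median UMIs per nucleus were 790, 609.5, 737 and 753 in the same order, against 2312, 1682, 1915 and 2691 in all other kept nuclei. Gated nuclei were thus shallow in all 4 rats, and most so in TBI rat 2. There 75.5% of gated nuclei lay under 700 UMIs, against 24.5%, 38.4% and 31.5% in TBI rat 1, the sham rat and the naïve rat. The gate bears on this depth, because a deeper nucleus needs more gate UMIs to reach 0.5%. Nuclei with 3 or more gate UMIs but below 0.5% numbered 469, 540, 344 and 261 in the order first given. Their median depths were 2600, 1993.5, 1849.5 and 5292 UMIs. The deposited matrices also listed entries with the value 0, which made up 0.827%, 26.0%, 6.94% and 12.6% of the entries of gated nuclei. They were highest in TBI rat 2 and were read as 0. Barcodes shared between any 2 rats numbered 321 over the 6 pairs of libraries.

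The label was checked against markers that the gate did not use. The summed level of 10 other microglial markers, among them P2ry12, Tmem119, Sall1, Gpr34 and Srgap2, was 5175 CPM (UMIs per 1000000 UMIs of the gated nuclei of a rat) in TBI rat 1, 6208 in TBI rat 2, 4644 in the sham animal and 8904 in the naïve animal. All other kept nuclei held 319, 400, 318 and 259 CPM of the same markers. The gated nuclei were thus far richer in microglial RNA in each rat, and richest in the naïve rat. At the edge of the gate the separation was weaker. Nuclei just inside it (0.5% to 0.6% gate UMIs) numbered 79, 130, 71 and 16 in TBI rat 1, TBI rat 2, the sham rat and the naïve rat and held 4403, 4941, 4212 and 4553 CPM of the 10 markers. Nuclei just outside it (0.4% to 0.5%) numbered 83, 109, 81 and 21 and still held 4132, 3913, 3445 and 2573 CPM. Markers of blood-borne cells were near 0. Of 9 monocyte and neutrophil genes in the matrix, Plac8 alone had any UMI, and the lymphocyte list summed to 2.97, 1.77, 11.9 and 6.72 CPM. Border macrophage genes summed to 56.4, 113, 138 and 104 CPM, with Colec12 the most abundant in TBI rat 1, the sham rat and the naïve rat and Mrc1 in TBI rat 2. The mannose receptor Mrc1 was at 0 in TBI rat 1.

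The values that chose the nuclei are given as a description. Gate genes summed to 8211 CPM in TBI rat 1, 9253 in TBI rat 2, 8075 in the sham animal and 12908 in the naïve animal. Csf1r was at 629, 788, 494 and 1082 CPM, and Cx3cr1 at 347, 402, 277 and 766 CPM. Inpp5d was at 1234, 1256, 1324 and 2133 CPM, and Lyn at 1365, 1793, 1308 and 1888 CPM. All 4 of these genes were highest in the naïve rat. Apbb1ip departed from that order, with 849, 817, 1142 and 1122 CPM. Csf1r had a UMI in 38.1%, 39.8%, 30.3% and 57.0% of gated nuclei, against 0.70%, 0.92%, 0.95% and 0.68% of oligodendrocyte-marker nuclei, a class that should lack it and whose median depths were 998.5, 715, 1095 and 1104 UMIs.

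Neuronal RNA in the gated nuclei separated the naïve rat from the other 3. All 10 glutamatergic neuron markers had UMIs, and their sum was 6890 CPM in TBI rat 1, 5332 in TBI rat 2, 7455 in the sham animal and 2213 in the naïve animal, with Syt1, a synaptic vesicle calcium sensor, or Gria2, an AMPA receptor subunit, the most abundant. The sum in all other kept nuclei was between 9949 and 10548 CPM in each rat. Marker UMIs of another class equalled or outnumbered the gate UMIs in 43.8%, 29.6%, 50.8% and 3.56% of gated nuclei. The naïve rat thus had both the most microglial and the least neuronal RNA for its total. At 500 UMIs drawn per nucleus, 3 or more glutamatergic markers were found in 44.6%, 26.7%, 46.8% and 3.56% of gated nuclei, and in 36.6%, 17.2%, 26.5% and 4.78% of oligodendrocyte-marker nuclei, so the naïve library was also lowest in a class unrelated to the gate. No doublet caller was run. Oligodendrocyte genes summed to 792, 1201, 834 and 678 CPM in gated nuclei and astrocyte genes to 1843, 2023, 2214 and 1968 CPM. Among the 10 genes with the most UMIs, the neuronal adhesion genes Nrxn3 (4042, 2768, 4296 and 514 CPM) and Lrrtm4 (3843, 2976, 4071 and 615 CPM) stood beside the microglial gene Srgap2 (2855, 3383, 2885 and 5028 CPM) and the protease inhibitor Cst3 (1193, 1817, 802 and 5011 CPM). The unnamed locus AC134224.3 alone held 49928, 56733, 54949 and 84986 CPM. These counts take in introns and scale with gene length, so they do not rank the genes. Neuronal genes moved with every contrast that includes the naïve rat, and their part in those results was not tested.

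**Figure D1:**
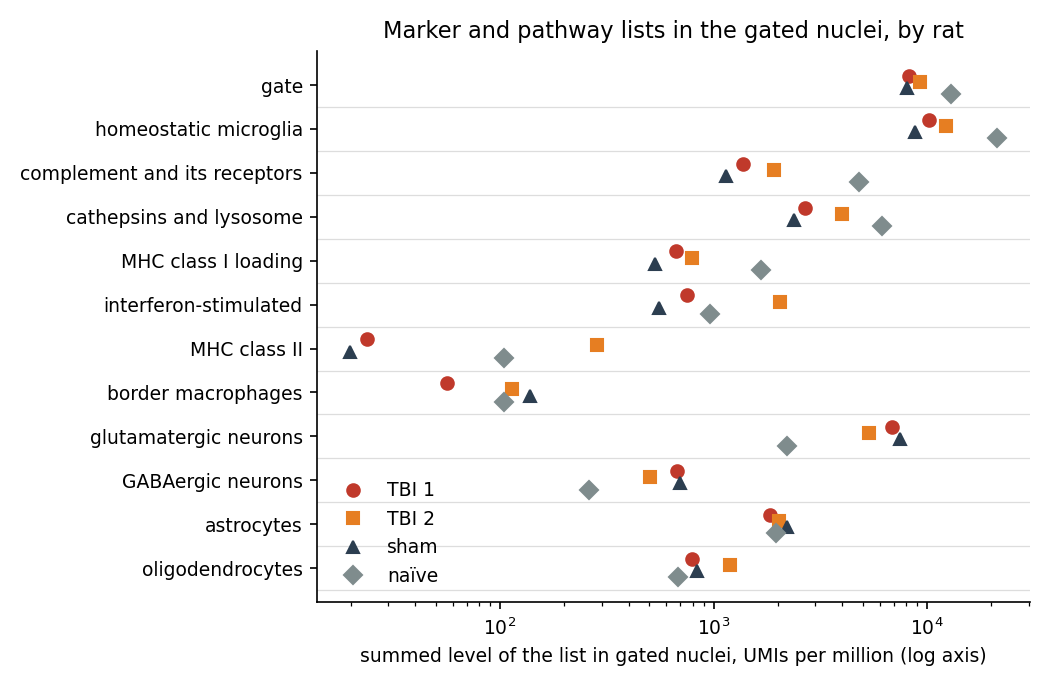
Summed level in the gated nuclei (CPM, log axis) of 12 gene lists, with 1 point for each of the 4 rats. The naïve rat lay highest for the homeostatic and complement lists (21376 and 4827 CPM) and lowest for glutamatergic neuron markers (2213 CPM), and TBI rat 2 lay highest for the interferon-stimulated and MHC class II lists (2053 and 283 CPM).

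The first comparison asked whether microglia nuclei took a larger share of nuclei after TBI. They were 404 of 12526 nuclei in TBI rat 1 (3.23%, 95% Wilson interval 2.93% to 3.55%) and 842 of 14574 in TBI rat 2 (5.78%, 5.41% to 6.17%). They were 333 of 16936 in the sham rat (1.97%, 1.77% to 2.19%) and 365 of 11365 in the naïve rat (3.21%, 2.90% to 3.55%). The intervals cover counting error only. TBI rat 2 lay above the other 3 rats, while TBI rat 1 and the naïve rat overlapped. The mean was 4.50% ± 1.80 (SD, n = 2) after TBI and 2.59% ± 0.88 (SD, n = 2) in the control, a difference of 1.91 percentage points (two-sided exact permutation test, p = 0.33, the lowest value possible with 2 animals in each group). Without TBI rat 2 the difference was 0.636 points, and without TBI rat 1 it was 3.19 points.

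The share depended on where the gate was set. With at least 5 gate UMIs and 1% of UMIs, it was 0.671%, 2.00%, 0.390% and 2.44% in TBI rat 1, TBI rat 2, the sham rat and the naïve rat, and the naïve rat came out highest. The difference then was -0.0764 points. Among nuclei whose gate UMIs outnumbered the markers of every other class, the shares were 1.81%, 4.07%, 0.968% and 3.1%. At 500 UMIs per nucleus they were 3.09%, 5.87%, 1.97% and 3.30%. Under all of these rules the sham rat had the lowest share. The naïve rat lay above TBI rat 1 under these 3, but below it with at least 1000 UMIs, with the study's further filters and with listed zeros read as 1 UMI. Most of the gated nuclei lay near the depth limit: with at least 1000 UMIs the shares fell to 0.451%, 0.524%, 0.146% and 0.409%. The gate itself bears on this fall, since its percentage rule leaves out deeper nuclei with 3 or more gate UMIs.

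**Figure D2:**
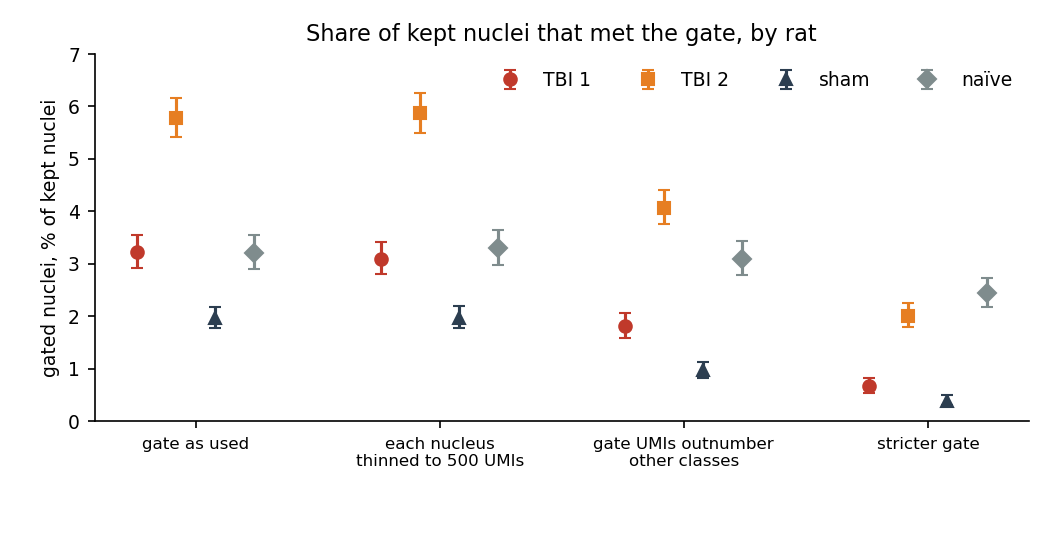
Percentage of kept nuclei that met the gate in each of the 4 rats, with 95% Wilson intervals, for the gate as used, at 500 UMIs per nucleus, with gate UMIs outnumbering other classes, and for the stricter gate. TBI rat 2 was highest under the gate as used (5.78%) and the naïve rat under the stricter gate (2.44%).

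The second comparison asked which genes differed in microglia nuclei between TBI and control, over the summed UMIs of each rat. With edgeR's quasi-likelihood test, 0 of 6672 genes were called at an adjusted p under 0.05 (0.0%), 76 (1.14%) had an unadjusted p under 0.05, and DESeq2 called 0, with 14 (0.21%) under 0.05. Both TBI rats lay above both controls for 932 genes (14%) and below both for 772 (11.6%). The calls depended on which control rat was used and on which genes the filter on low counts let in. Against the naïve rat alone, 637 of 7888 genes were called (8.08%), 499 of them higher (6.33%) and 138 lower (1.75%). Against the sham rat alone, 5 of 7622 were called (0.0656%), all higher: Axl, Mx1, Slfn2, Slfn4 and Tec. Without TBI rat 1, 3 of 7398 were called (0.0406%), Axl and Slfn4 higher (0.027%) and Ano5 lower (0.0135%), and without TBI rat 2, 0 of 7320 were called. In each of these fits a lone rat was assumed to vary like the other rats. A gene also passed the filter there when only 1 rat reached it. Axl, Slfn4 and Mx1 entered in this way and were outside the 6672. With all 4 rats and no filter, edgeR called Axl, Hba-a1, Mx1 and Slfn4, 4 of 15482 genes.

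The genes of smallest p that separated the groups without overlap are given although none was called. Slfn13, a Schlafen family gene, was at 125 and 190 CPM in the TBI rats and 55.3 and 67.2 CPM in the sham and naïve rats (Log2FC 1.36, SE 0.36, edgeR unadjusted p = 0.00881, adjusted p = 0.9995). Rad17, a DNA damage checkpoint gene, was at 110 and 92.1 against 31.6 and 47.0 CPM (Log2FC 1.34), and LOC102546648 at 86.1 and 79.7 against 23.7 and 23.5 CPM (Log2FC 1.79). Gnas.1 was at 89.0 and 77.9 against 31.6 and 13.4 CPM (Log2FC 1.89). Its Log2FC was 1.05 with listed zeros read as 1 UMI, 2.65 without the sham rat and 1.34 without the naïve rat. For these 4 genes both TBI rats lay above both controls, and Gnas.1 was lowest in the naïve rat, as the neuronal markers were.

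On the lower side, Alox5, the 5-lipoxygenase that begins leukotriene synthesis, was at 59.3 and 31.9 CPM in the TBI rats and 98.8 and 195 CPM in the sham and naïve rats (Log2FC -1.72, SE 0.49, edgeR unadjusted p = 0.0115). Tmem154 was at 11.9 and 14.2 against 55.3 and 50.4 CPM (Log2FC -1.98), and the mitochondrial aldehyde dehydrogenase Aldh2 at 23.7 and 15.9 against 59.3 and 77.3 CPM (Log2FC -1.81). Pstpip2, an adaptor that binds the plasma membrane and actin in myeloid cells, was at 35.6 and 40.7 against 79.1 and 121 CPM (Log2FC -1.38). Gli2, a transcription factor of Hedgehog signalling, was at 65.3 and 51.4 against 130 and 151 CPM (Log2FC -1.28). In each of the 5, both TBI rats lay below both controls, and for Alox5 the TBI rats also differed from each other. The choice of these genes by p and overlap fixed their direction.

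Homeostatic microglial genes, which mark the surveying state, had 13 of 15 tested members lower after TBI, with a median Log2FC of -0.34 against 0.02 over all 6672 genes (52.2% of them above 0), and none called. The direction rested on the naïve rat. The list summed to 10190 and 12312 CPM in the TBI rats, 8826 in the sham animal and 21376 in the naïve animal, and the median was -0.72 against the naïve rat and 0.43 against the sham rat. Cst3 (1193 and 1817 against 802 and 5011 CPM) and the engulfment receptor Mertk (1015 and 1080 against 980 and 2274 CPM) were called lower against the naïve rat alone (edgeR, adjusted p under the threshold), as were 1.75% of all genes. Mef2c, a transcription factor, was at 1264, 1374, 1194 and 2247 CPM. The list shares 2 genes with the gate, and over the 13 tested genes outside it 11 were lower, with medians of -0.34, -0.72 and 0.43 in the same order.

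The C1q genes were set apart by the naïve rat. C1qa, a chain of the C1q molecule that starts the classical pathway, was at 231 CPM in TBI rat 1, 326 in TBI rat 2, 178 in the sham animal and 1451 in the naïve animal. C1qb was at 157, 298, 142 and 1122 CPM and C1qc at 68.2, 85.0, 51.4 and 433 CPM. The naïve rat lay far above the other 3, and the TBI rats lay above the sham rat in all 3 chains. The Log2FC of C1qa was -1.52 (SE 0.87, edgeR unadjusted p = 0.130), -2.32 against the naïve rat alone (adjusted p = 4.13e-11) and 0.62 against the sham rat alone (adjusted p = 0.988). That of C1qb was -1.45, or 0.66 against the sham rat, and that of C1qc was -1.64, or 0.55 against the sham rat. C1qa had a UMI in 17.6%, 19.1%, 12.3% and 63.3% of gated nuclei (11.9%, 15.9%, 6.91% and 51.2% at 500 UMIs) and in at most 2.31% of oligodendrocyte-marker nuclei. The receptor chain Itgam was at 193, 228, 142 and 249 CPM. Over the 9 complement genes tested the median was -0.19, with 3 higher, 6 lower and none called. It was -0.97 without TBI rat 2, -0.04 without TBI rat 1, -0.57 against the naïve rat, 0.54 against the sham rat and -0.56 in nuclei whose gate UMIs outnumbered other classes. In those nuclei the list summed to 1349, 2020, 1223 and 5002 CPM, highest in the naïve rat. Glutamatergic markers summed there to 5200, 3825, 5492 and 1986 CPM and were still lowest in the naïve rat. The part of neuronal RNA in the complement values was not tested.

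Interferon-stimulated genes ran the other way. Of 12 tested, 10 had a Log2FC above 0 and the median was 0.41, with none called, 2 at an unadjusted p under 0.05 (1.14% of all genes) and 3 with both TBI rats above both controls (14% of all genes). The list summed to 751 CPM in TBI rat 1, 2053 in TBI rat 2, 557 in the sham animal and 961 in the naïve animal, so it was highest in TBI rat 2, and the median was -0.06 without that rat, 0.72 without TBI rat 1 and 0.17 in nuclei whose gate UMIs outnumbered other classes. Parp14 was at 68.2 and 113 against 35.6 and 94.0 CPM and Ifi27 at 44.5 and 74.4 against 35.6 and 121 CPM. Eif2ak2, with its response element shown above, was at 44.5 and 81.5 against 35.6 and 26.9 CPM (Log2FC 1.04, unadjusted p = 0.0818), a gene chosen for its sequence. Slfn13, given above, was higher in both TBI rats, while Parp14 and Ifi27 overlapped.

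Slfn4 and Mx1 lay almost wholly in TBI rat 2. Slfn4 had 8 UMIs in TBI rat 1, 264 in TBI rat 2, 6 in the sham animal and 3 in the naïve animal, or 23.7, 468, 23.7 and 10.1 CPM. Mx1, an antiviral GTPase, had 5, 76, 1 and 4 UMIs, and Usp18, a brake on interferon receptor signalling, had 0, 41, 3 and 3. The TAM receptor Axl, which clears apoptotic debris, had 4, 95, 2 and 4. The lysosomal glycoprotein Gpnmb had 1, 35, 1 and 1, and Spp1 (osteopontin) had 0, 15, 0 and 0. Each of the 6 was highest in TBI rat 2, and TBI rat 1 was in the range of the controls or within 3 UMIs of it. Of 9113 genes with at least 20 UMIs, 10 (0.11%) were at least 4-fold above the other 3 rats in TBI rat 2, among them Slfn4, Axl, Mx1, Usp18 and Gpnmb, a rule set after the values were seen and with counts under 3 taken as 3. Schlafen, RT1 and haemoglobin genes have close paralogs, and how their reads were split is uncertain. The same rule found 3 genes in TBI rat 1 (0.0329%), 0 in the sham animal and 8 in the naïve animal (0.0878%), among them C1qa, C1qc, Spata22 and the haemoglobin genes Hba-a1 and Hba-a2. Also among the 10 was the myelin gene Mag, with 3, 29, 3 and 3 UMIs. Genes at least 4-fold below the other 3 rats numbered 2 in TBI rat 1 (0.0219%), 14 in TBI rat 2 (0.154%), 1 in the sham animal (0.011%) and 92 in the naïve animal (1.01%), the last with Nrxn3 and Lrrtm4 among them.

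**Figure D3:**
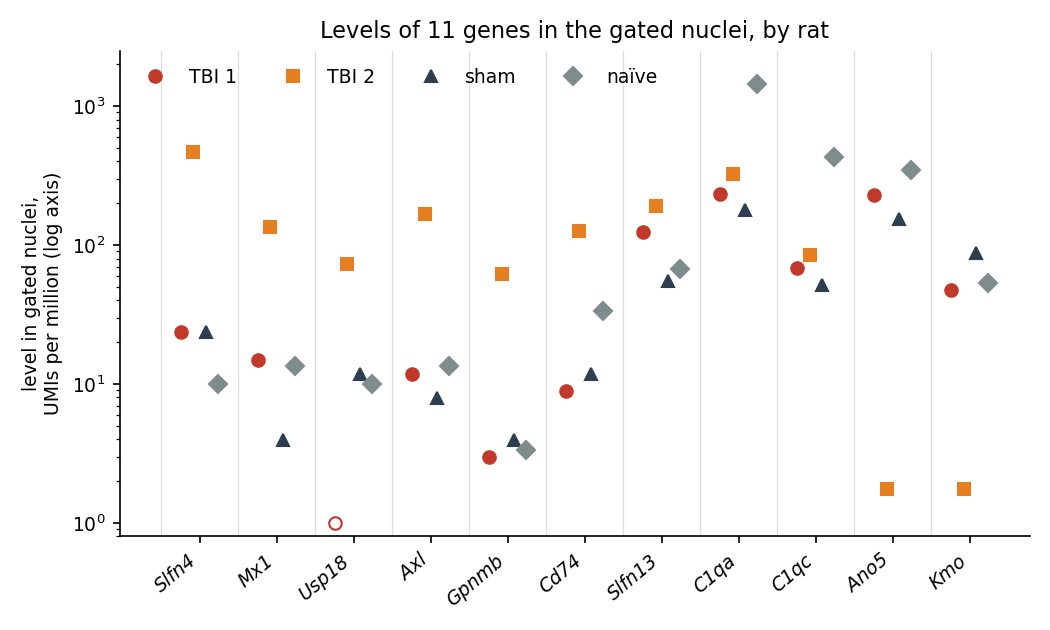
Level (CPM, log axis) of 11 genes in the gated nuclei, with 1 point for each of the 4 rats. The open symbol at 1 is Usp18 in TBI rat 1, with 0 UMIs. Slfn4, Mx1, Usp18, Axl, Gpnmb and Cd74 were highest in TBI rat 2, Ano5 and Kmo lowest there, and C1qa and C1qc highest in the naïve rat.

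Slfn4 lay in few nuclei, whereas at least 1 gene of the list was found at 500 UMIs in 29.7%, 46.4%, 25.8% and 37.5% of gated nuclei (7.04%, 12.9%, 6.16% and 11.6% of oligodendrocyte-marker nuclei). Slfn4 had a UMI in 1.98%, 8.08%, 1.80% and 0.82% of the gated nuclei of TBI rat 1, TBI rat 2, the sham rat and the naïve rat (1.49%, 7.13%, 1.2% and 0.55% at 500 UMIs), against at most 0.92% of oligodendrocyte-marker nuclei in any rat. Of its 264 UMIs in TBI rat 2, up to 18 lay in 1 nucleus, and 31 nuclei held 3 or more, whereas no nucleus of the other 3 rats held more than 1. At 500 UMIs, 3 or more genes of the list were found in 7.36% of gated nuclei of TBI rat 2 (62 nuclei), 0.99% of TBI rat 1 (4), 0.82% of the naïve rat (3) and 0 of the 333 of the sham rat, which allows a share of up to 0.901%. The 68 nuclei of TBI rat 2 with a Slfn4 UMI had a median of 642 UMIs, and the 774 without it had 607.5. Mx1 had a UMI in 32.4% of the former and 3.36% of the latter, Usp18 in 20.6% and 2.84%, Spp1 in 13.2% and 0.517%, and Axl in 25% and 8.53%. Any other gene of the list had a UMI in 80.9% and 48.1%. Gpnmb did not follow, at 4.41% and 3.75%, nor did Csf1r, at 35.3% and 40.2%, or C1qa, at 19.1% in both. These are nuclei of a single rat, compared after the values were seen, and no test was made.

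MHC class II genes, which present antigen to helper T cells, were also highest in TBI rat 2. The list summed to 23.7, 283, 19.8 and 104 CPM in TBI rat 1, TBI rat 2, the sham rat and the naïve rat. Cd74, the invariant chain, had 3, 71, 3 and 10 UMIs (Log2FC 1.59, SE 1.10, edgeR unadjusted p = 0.194), and RT1-Da had 0, 25, 1 and 11. RT1-Db1 had 1, 27, 0 and 4 UMIs and was below the filter. TBI rat 1 and the sham rat were near 0 and the naïve rat lay between, so the groups overlapped. Cd74 had a UMI in 0.74%, 7.13%, 0.90% and 2.74% of gated nuclei. MHC class I and its loading machinery summed to 671, 790, 530 and 1673 CPM. There Calr, a chaperone of the endoplasmic reticulum, was at 193 and 158 against 186 and 726 CPM, Pdia3 at 208 and 213 against 142 and 343 CPM, and B2m, the light chain, at 125 and 259 against 107 and 403 CPM. Of 4 class I genes tested, 1 was higher and 3 lower, none called. The median was -0.30, or -0.57 without TBI rat 2 and -0.07 without TBI rat 1. It was -0.82 against the naïve rat and 0.68 against the sham rat. Calr and B2m were lower in both TBI rats than in the naïve rat. The class I list was also highest outside the gate in the naïve rat. In other kept nuclei it summed to 514 CPM there, against 341 in TBI rat 1, 305 in TBI rat 2 and 271 in the sham rat. In oligodendrocyte-marker nuclei it was 458, against 289, 368 and 222 CPM.

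Genes of the disease-associated state, which microglia adopt around debris and plaques, were split. Of 10 tested, 4 were higher and 6 lower after TBI (median Log2FC -0.14, none called), and the median was -0.64 against the naïve rat, 0.93 against the sham rat, -0.55 without TBI rat 2 and 0.18 without TBI rat 1. Over the 13 genes testable against the naïve rat alone the median was 0.02, with 7 higher. With a lone control, a gene high in only 1 rat passes the filter on low counts. Genes let in this way account for the move from -0.64, and Axl, high in TBI rat 2, was among them. Apoe, the main lipid carrier of the brain, was at 914 and 1800 CPM in the TBI rats and 1071 and 3382 CPM in the controls. The lysosomal protease Ctsd was at 119 and 280 against 79.1 and 208 CPM, Ctsb at 128 and 181 against 107 and 228 CPM, and Timp2 at 145 and 218 against 146 and 356 CPM. Apoe was also highest in the other kept nuclei of the naïve rat, at 1358 CPM against 446 to 662 CPM in the other 3 rats. Trem2, the lipid-sensing receptor that opens this state, was at 80.1 and 149 against 90.9 and 299 CPM, and its adaptor Tyrobp at 32.6 and 119 against 35.6 and 191 CPM. Both were named because they were called lower against the naïve rat alone, and neither separated the 2 TBI rats from both controls. Among the TAM receptors and ligands, the 3 tested (Mertk, Pros1 and Gas6) all had a Log2FC below 0, with a median of -0.30, of -0.61 against the naïve rat and of 0.18 against the sham rat.

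Lysosomal and cathepsin genes summed to 2697, 4010, 2383 and 6157 CPM. Of 18 tested, 14 were lower (median Log2FC -0.18, or -0.66 without TBI rat 2, 0.08 without TBI rat 1 and 0.49 against the sham rat) and none was called, and against the naïve rat alone 5 were called lower with edgeR (Ctsh, Ctsl, Ctss, Ctsz and Lamp2), as were 1.75% of all genes. Ctss, a cathepsin of antigen processing, was at 543 and 565 against 542 and 1407 CPM and Lgmn, a lysosomal endopeptidase, at 570 and 811 against 387 and 867 CPM. Fc receptors and lectins had a median of -0.13 over 6 genes, with -1.0 without TBI rat 2, 0.12 without TBI rat 1 and 0.58 against the sham rat. Fcer1g was at 53.4 and 190 against 79.1 and 191 CPM, and the kinase Syk was even, at 160, 179, 150 and 165 CPM. Toll-like receptor and inflammasome genes had 8 of 9 lower (median -0.29, or -0.69 against the naïve rat and 0.52 against the sham rat), with Nfkb1 at 243, 278, 178 and 369 CPM and Nlrp3 at 142, 142, 94.9 and 269 CPM. Tlr3, a sensor of double-stranded RNA, had 20, 40, 3 and 31 UMIs and was at least 4-fold lower in the sham rat than in each other rat. In each of these lists the naïve rat had the highest sum and the sham rat or TBI rat 1 the lowest.

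Chemokine genes were few, with 2 tested of 11 with a UMI, Cx3cr1 being given above. Leukocyte actin and adhesion genes share 4 genes with the gate, and of the 15 tested outside it 12 were lower with a median of -0.15 (-0.38 against the naïve rat and 0.16 against the sham rat), none called, and Arhgap15 was at 1347, 1451, 1332 and 2254 CPM. Vav3, an exchange factor for small GTPases, went against them, at 573 and 507 CPM in the TBI rats and 431 and 161 CPM in the controls (Log2FC 0.85, edgeR unadjusted p = 0.160). It was lowest in the naïve rat, as the neuronal markers were, and higher in all other kept nuclei (804, 961, 765 and 808 CPM) than in gated nuclei. The lipid handling list, which also takes in the hexokinase Hk2, an enzyme of glucose use, had a median of -0.09 over 9 genes. That median was -0.47 without TBI rat 2, 0.21 without TBI rat 1 and 0.44 against the sham rat. Hk2 was at 834, 1183, 723 and 1847 CPM and the cholesterol exporter Abca1 at 190, 406, 202 and 269 CPM. Cell cycle genes summed to 17.8, 24.8, 47.4 and 57.1 CPM and none was tested. The proliferation marker Mki67 had 0, 0, 3 and 6 UMIs, all in the controls, and a count of 0 allows up to 3 UMIs. Other members had UMIs in the TBI rats, with Mcm3 the most abundant in TBI rat 1 (5.93 CPM) and Pcna in TBI rat 2 (12.4 CPM). In other kept nuclei Mki67 was at 4.81, 3.23, 3.91 and 9.85 CPM, again highest in the naïve rat.

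**Figure D4:**
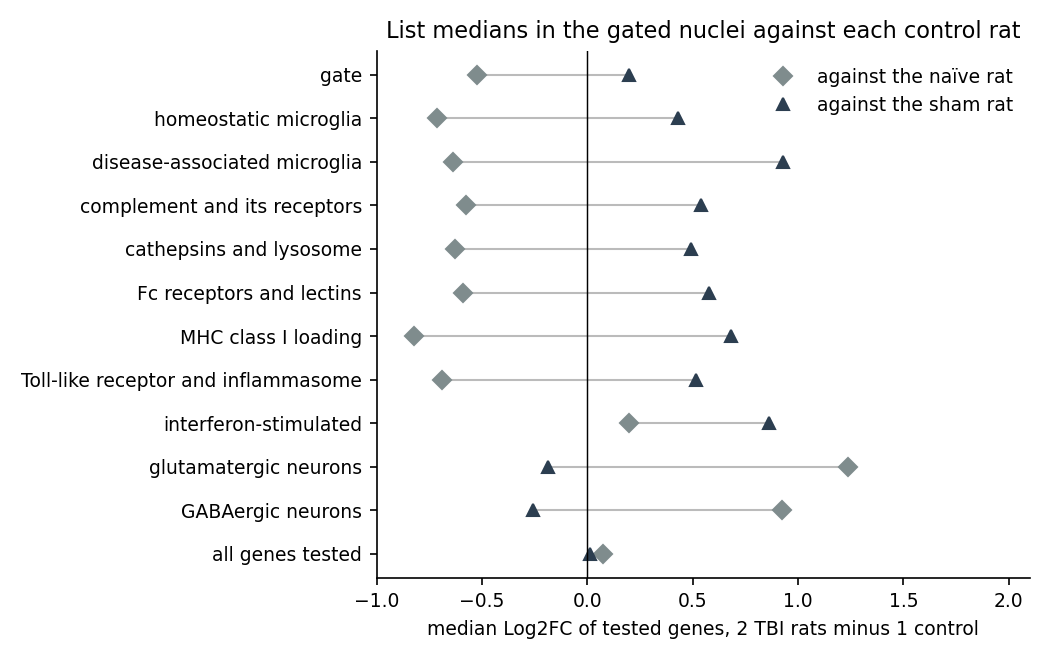
Median Log2FC over the tested genes of each list, for the 2 TBI rats against the naïve rat (diamonds) and against the sham rat (triangles). The homeostatic (-0.72 and 0.43), complement (-0.57 and 0.54) and cathepsin (-0.63 and 0.49) lists lay on opposite sides of 0, interferon-stimulated genes were above 0 in both (0.20 and 0.86), and glutamatergic neuron markers ran the opposite way (1.24 and -0.19). The gate row holds the genes that chose the nuclei and is a description.

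The 27 genes taken here from those the study named for its microglial clusters, leaving out most genes listed under its pathways, were chosen on these same rats, so their direction is not independent evidence. All 27 had UMIs in the gated nuclei and 18 were tested, of which 7 were higher and 11 lower, none called, 3 with both TBI rats above both controls (14% of all genes) and 5 below (11.6%). An unadjusted p under 0.05 was found for 3 of them, Slfn13 and Tmem154 included (edgeR). Itgav, an integrin chain, was at 107 and 142 CPM in the TBI rats and 178 and 228 CPM in the controls (Log2FC -0.70, unadjusted p = 0.0718), and Apbb3 at 17.8 and 21.3 against 55.3 and 33.6 CPM. Ano5 had 77 UMIs in TBI rat 1, 1 in TBI rat 2, 39 in the sham animal and 103 in the naïve animal. Kmo, the kynurenine monooxygenase, had 16, 1, 22 and 16, and Foxred1 had 10, 1, 9 and 19. For these 3 genes TBI rat 2 had the lowest value, and for Ano5 TBI rat 1 lay between the controls. In CPM, TBI rat 1 also lay below the sham and naïve rats for Kmo (47.5 against 87.0 and 53.7). The same held for Foxred1 (29.7 against 35.6 and 63.8). Ano5 had no listed 0 entry in the gated nuclei of any rat and was at 6.18, 3.50, 4.48 and 3.70 CPM in all other kept nuclei. The ribosomal gene Rpl10 had 15, 0, 0 and 15 UMIs, beside 3, 85, 13 and 55 listed 0 entries.

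Whether a TBI difference was particular to microglia nuclei was asked by an interaction with all other kept nuclei of the same rats. With edgeR, 0 of 14992 genes were called (0.0%), 459 (3.06%) had an unadjusted p under 0.05, and DESeq2 called 0, with 161 (1.07%) under 0.05. The smallest adjusted p was 0.0732, reached by Slfn4 (interaction 2.35 on the log2 scale, SE 0.57) and Ano5 (-1.89, SE 0.43), among others. With the stricter gate Slfn4 alone was called, and with listed zeros read as 1 UMI 20 genes were, 2 of them upward. Without TBI rat 1, Axl and Ano5 were called, without TBI rat 2 or the naïve rat none was, and without the sham rat 486 were, 348 of them upward. The count thus moved with the gate, the reading of listed zeros and the rats used.

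In bulk dentate gyrus of other rats the microglial genes had higher values after TBI, without a call by limma with the rats unpaired. With same-numbered rats as pairs, Csf1r and Dock8 were called (limma adjusted p = 0.0387 and 0.0381). The numbers were not taken to pair the rats. With DESeq2 on counts of the same bulk rats, the study did call genes, and it lists C1qa and Axl among them. In bulk tissue, more microglia and more RNA per microglial cell cannot be told apart. Csf1r was at 189, 363 and 202 CPM in the 3 TBI rats and 109, 118 and 95.5 CPM in the 3 sham rats (Log2FC 1.17, SE 0.24, limma adjusted p = 0.152). Cx3cr1 was at 32.7, 56.3 and 25.6 against 17.8, 20.7 and 17.5 CPM. All 10 gate genes had a Log2FC above 0 (median 1.0, against 0.04 over all genes, of which 59.4% were above 0), and 9 did not overlap between the groups, against 11.7% of all 14166 genes tested. Inpp5d was the exception, at 25.1, 48.3 and 29.0 against 15.9, 18.2 and 36.6 CPM. With limma, 0 genes were called (0.0%), the smallest adjusted p was 0.149, and 1340 (9.46%) had an unadjusted p under 0.05, among them 9 of the 10 gate genes. The gate median was 0.69 among rats operated on in spring (1 TBI and 2 sham rats) and 1.26 among those of autumn (2 TBI and 1 sham), so period and injury were unbalanced. The interferon-stimulated list had medians of 0.45 and 1.28. With period as a covariate limma called 0 genes, 1040 had an unadjusted p under 0.05, and the Log2FC of Inpp5d went from 0.58 to 0.30 and that of Csf1r to 1.12.

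**Figure D5:**
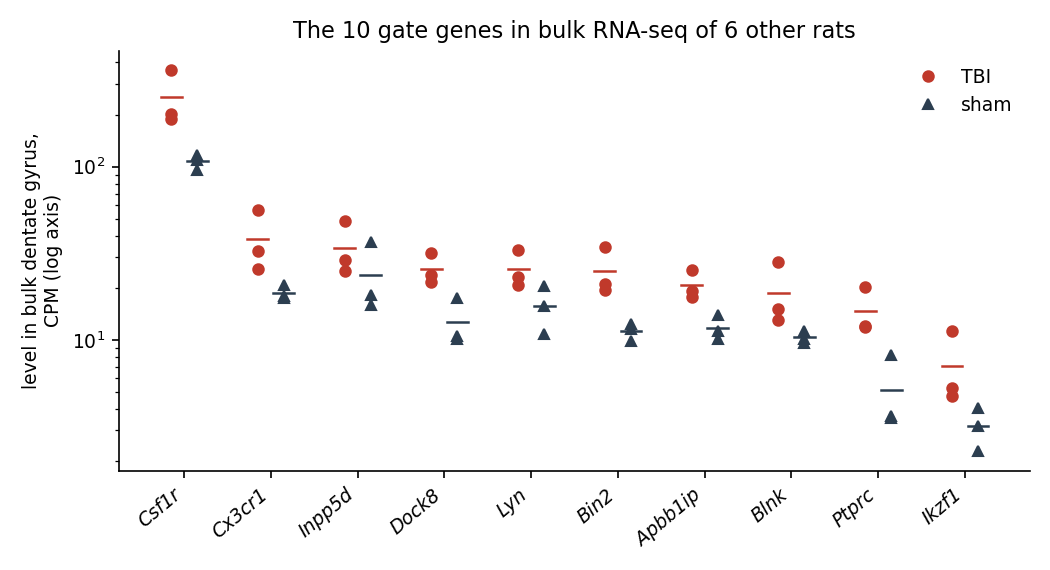
Level in bulk dentate gyrus (CPM, log axis) of the 10 gate genes, with 1 point for each of 3 TBI and 3 sham rats and bars at the group means. The TBI points lay above all sham points for 9 of the 10 genes, Inpp5d being the exception.

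The microglial lists followed the gate genes in bulk. All 19 homeostatic genes tested had a Log2FC above 0, 13 without overlap, against 11.7% of all genes (median Log2FC 0.79), among them P2ry12 at 20.6, 40 and 16.9 against 12.9, 11.7 and 10.7 CPM. C1qa was at 123, 238 and 120 CPM in the TBI rats and 66.1, 53.5 and 68.7 CPM in the sham rats (Log2FC 1.28, SE 0.26, limma adjusted p = 0.152), and 14 of 18 complement genes were higher without overlap (median 1.30). Interferon-stimulated genes had 27 of 36 higher without overlap (median 0.95), but Slfn4 overlapped, at 3.90, 7.76 and 10.2 against 2.31, 4.65 and 1.62 CPM, as did Mx1, at 14.6, 14.9 and 27.4 against 1.91, 3.87 and 21.0 CPM. Usp18 did not overlap, at 2.93, 5.67 and 7.96 against 2.50, 2.51 and 2.11 CPM.

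Of the genes high in TBI rat 2 among nuclei, Cd74, Gpnmb and Axl were above all 3 shams in the 3 bulk TBI rats, as were 11.7% of all genes, and Spp1 overlapped, at 8.71, 22.1 and 3.69 against 0.514, 13.1 and 0.786 CPM. Cd74 was at 138, 257 and 182 against 18.4, 68.5 and 47.7 CPM (Log2FC 2.25, SE 0.46, limma adjusted p = 0.152), and of 9 MHC class II genes 8 were higher without overlap and 1, RT1-DMa, lower without overlap, as were 3.04% of all genes. Gpnmb was at 42.0, 109 and 45.6 against 8.82, 19.3 and 12 CPM (Log2FC 2.23), and Axl at 68.8, 96.6 and 95 against 44.9, 47.6 and 38.0 CPM (Log2FC 0.99, SE 0.16, limma adjusted p = 0.149). Kmo, low in TBI rat 2 among nuclei, was higher in bulk, at 2.04, 4.69 and 2.37 against 0.590, 1.67 and 1.01 CPM, and Ano5 was at 2.65, 2.60 and 2.30 against 0.857, 2.15 and 0.854 CPM. Border macrophage genes were higher without overlap for 7 of 8 and astrocyte genes for 6 of 9, against 11.7% of all genes, while glutamatergic neuron markers had a median of -0.15. All 8 oligodendrocyte genes had a Log2FC below 0, none without overlap, and their sum was 5320, 8327 and 5512 CPM in the TBI rats and 5635, 17829 and 6967 CPM in the sham rats, sham rat 2 standing apart. Genes of other cell classes thus moved with the microglial lists in bulk, and their part in the result was not tested.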

How the data were processed

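The deposited snRNA-seq matrices hold UMI counts per gene and nucleus. Per the labels and the study's methods, the authors made them with Cell Ranger from reads on exons and introns of Rnor_6.0, 1 library per rat, all with the same batch label. Listed entries of 0 were read as 0. Bulk tables hold log2 CPM per gene that the authors made from estimated counts, deposited per transcript and totalling 25121893 to 44649404 per rat. Columns of the authors' own fold changes and p-values were not used. UMIs of gated nuclei were summed per rat and tested with edgeR 4.0.16 (DESeq2 1.42.0 as an alternative), and bulk log2 values with limma 3.58.1, in R 4.3.3, with Benjamini-Hochberg adjustment over all genes tested (threshold 0.05). A Log2FC is TBI minus control. Nothing says that rats came from separate litters. The members and lists were chosen with earlier results of these data known. Genes named were the gate genes, those the study named, up to 4 of highest mean CPM per list, some of the 10 of highest mean CPM, the 5 of smallest p per direction without overlap, and any called, and other genes were chosen after their values were seen. On simulated counts, edgeR recovered 74 of 100 genes changed 4-fold and 10 of 100 changed 2-fold between gated nuclei of the groups, of 6227 genes tested (DESeq2 44 and 3, of 6192), and 40 and 1 for the interaction, of 6672. The simulated rats shared a common profile and varied less than the gated nuclei did (biological coefficient of variation 0.33 in the fit). Recovery in the data may therefore be lower. The interaction was simulated without differences between rats and on fewer genes than the 14992 tested. In bulk, limma recovered 78 and 45 and called 10 unchanged genes of 14166. Of 14166 bulk gene IDs, 13778 were matched to symbols. The study's further filters left 55124 nuclei, 1940 of them gated. Some genes that the rule names are not reported here.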

Additional observations from a re-analysis of the deposited data

How the results depend on the processing

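The difference in share of gated nuclei stayed above 0 with at least 1000 UMIs (0.210 points), with gate UMIs outnumbering other classes (0.908), with the study's further filters (1.95), with listed zeros read as 1 UMI (1.74) and at 500 UMIs per nucleus (1.84), and reversed with the stricter gate (-0.0764). With a rat left out it ran from 0.636 (without TBI rat 2) to 3.19 (without TBI rat 1). Genes called between TBI and control in gated nuclei were 4 without a filter on low counts (Axl, Hba-a1, Mx1 and Slfn4) and 0 to 637 with a rat left out, 637 being without the sham rat. The other alternatives run gave 0, as did the study's own threshold (adjusted p under 0.01 and Log2FC of at least 1.5 in size). C1qa, C1qb and C1qc were at -2.32, -2.23 and -2.43 without the sham rat and reversed to 0.62, 0.66 and 0.55 without the naïve rat. For the interaction, the stricter gate gave 1 call, listed zeros read as 1 UMI gave 20 (2 upward, 18 downward), and leaving out a rat gave 0 to 486. Leaving out a bulk rat gave 0 to 1. The cause of these moves was not tested. The gated nuclei of each rat hold 252997 to 564557 UMIs in all, so genes under 20 UMIs have little depth behind them.

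In the bulk samples the replicate block (same-numbered TBI and sham rats as pairs) gave 125 calls in place of 0, 124 of them higher after TBI. The deviations of same-numbered rats correlated at 0.35, 0.17 and -0.03, so the numbers were not taken to pair the rats. No paired analysis was possible for the nuclei because the controls share no second number.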
